A study of Mus musculus with 24 samples.

Results

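G-protein-coupled receptors for neurotransmitters and neuropeptides were followed in primary cortical neurons of mice that carry or lack the histone variant H2BE, before and after treatment with brain-derived neurotrophic factor (BDNF). The set was chosen by name from the receptor families for adenosine, noradrenaline, acetylcholine, endocannabinoids, dopamine, GABA, histamine, serotonin and 8 kinds of peptide, together with Gpr3 and Gpr50. It holds 71 protein-coding genes of the 45792 genes in the deposited count table. The rule uses gene names and no threshold on a measured value, but it was chosen with earlier results of these data known. Shares of the set beside a background are therefore descriptive. After the filter on low counts, 61 of the 71 remained among 16777 genes that were tested. The other 10, among them Adora3, Avpr1b, Avpr2, Drd3, Sstr5 and Tacr2, had too few reads for a test.

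The cultures came from E16.5 embryos and were kept for 12 days. The 24 libraries of polyadenylated RNA form 6 groups of 4 biological replicates: wild type (WT) control, WT with BDNF for 30 min, WT with BDNF for 24 h, and the same 3 conditions for the knockout (KO), whose genotype is labelled H2BE-KO/mCherry-KI, a deletion that also carries an mCherry knock-in. Each replicate number is taken to stand for a culture that gave 1 library in each of the 3 conditions. This reading rests on a code in the sample descriptions, which the labels do not explain in words. The design asks how receptor transcripts respond to BDNF over a short and a long treatment, and whether the knockout changes their level or that response.

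These receptors turn the binding of a transmitter or peptide outside the cell into the activation of a G protein inside it. Receptors coupled to Gs raise cyclic AMP, those coupled to Gi/o lower it and open GIRK potassium channels, and those coupled to Gq/11 activate phospholipase C and release calcium. In the cortex, acetylcholine, noradrenaline, serotonin, dopamine and histamine arrive mainly from distant nuclei, while several peptides, among them neuropeptide Y, somatostatin and nociceptin, are made by local interneurons.

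Library depth was 19780486 to 62135270 counts. The gene of H2BE, Hist2h2be, was at 3.15 to 5.83 CPM (counts scaled to the library total with TMM factors) in WT libraries and higher in every KO library, so its gene-level count does not check the deletion. It was at 21.2 CPM in KO 24 h replicate 4 and between 49.96 and 63.1 CPM in the other KO libraries. That library, labelled KO 24 h replicate 4, also lay toward WT in neuronal markers: Tbr1 was at 100.2 CPM against 29.8 to 31.9 in the other KO 24 h libraries and 68.2 to 148 in WT, and Gad2 at 294.6 CPM against 661 to 722 and 190 to 652. Whether its label is right was not tested, and every KO value at 24 h includes it unless stated otherwise. The mitochondrial share of counts was 4.18 to 6.40% in WT libraries, 7.52 to 9.34% in KO culture 3 and 10.9 to 21.7% in KO culture 4, so that libraries of 2 of the 4 KO cultures exceeded all of WT; its part in the genotype differences was not tested. Neuronal markers were abundant: the pan-neuronal list summed to 5689 to 5767 CPM in WT controls, while the microglial list stayed at 0.682 to 4.97 CPM and the astrocyte list at 15.7 to 86.2 CPM over all libraries, with the astrocyte gene Gjb6 at 0. In bulk RNA, a change in the number of cells that express a receptor and a change in its RNA per cell cannot be told apart.

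Per kilobase of exon, the GABA-B receptor subunit Gabbr1, a part of the obligate heterodimer that couples GABA to Gi/o, was the most abundant receptor transcript in WT control cultures at 106 ± 5.33 CPM per kb (SD, n = 4). The cannabinoid receptor Cnr1 followed at 54.4 ± 27.9, with libraries from 31.1 to 94.9, then the partner subunit Gabbr2 at 38.9 ± 4.05 and the adenosine A1 receptor Adora1 at 28.3 ± 5.13. The lowest Cnr1 libraries lie below the Gabbr2 mean, so that the order of these neighbours is not larger than their spread. The nociceptin receptor Oprl1 (16.2 ± 1.52) and the neuropeptide Y receptor Npy1r (12.1 ± 1.25) came next, and their libraries did not overlap, whereas those of Npy1r and Sstr1 did. Sstr1 (9.03 ± 2.90), Sstr2 (8.83 ± 0.764), Chrm1 (8.78 ± 1.15) and Chrm4 (7.47 ± 1.12) completed the 10 most abundant, and these last 4 overlapped one another. All of the 10 except Chrm1 are receptors that couple mainly to Gi/o.

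**Figure D1:**
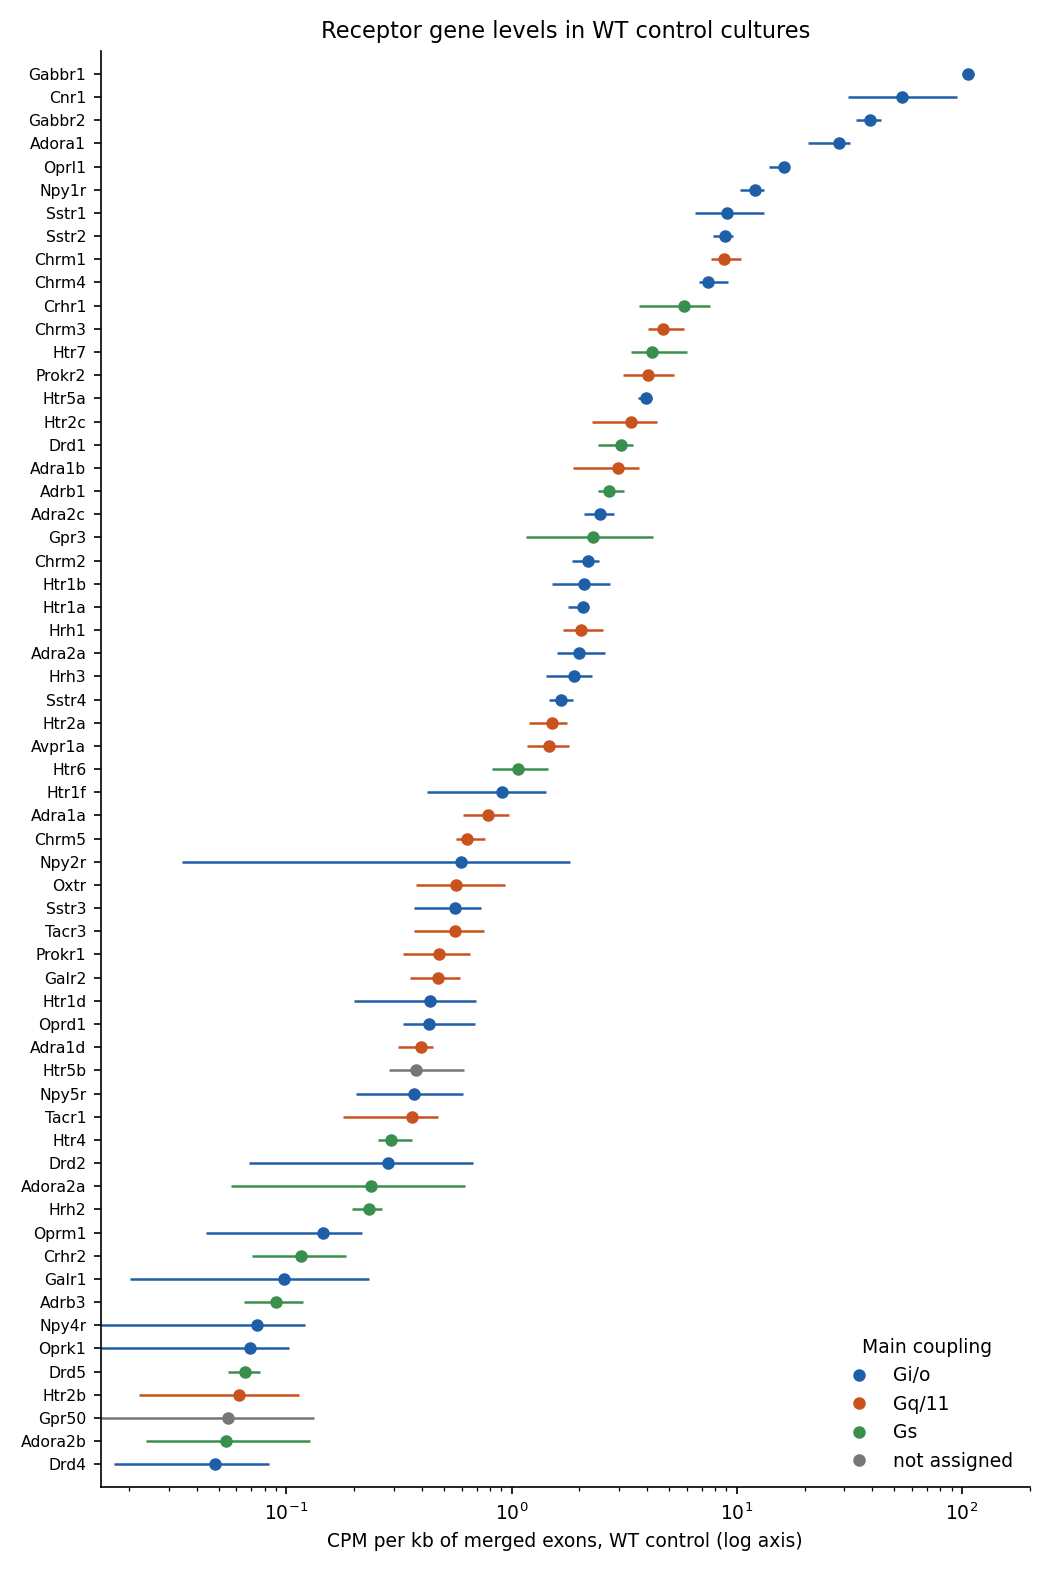
Level of the 61 tested receptor genes in WT control cultures, in CPM per kb of exon on a log axis; points are means of 4 libraries, lines run from the lowest to the highest library, and colours give the main G protein. Gabbr1 stands highest at 106 CPM per kb; the lines of Npy4r, Oprk1 and Gpr50 reach the edge because 1 library is at 0.

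After 30 min of BDNF, 1 receptor gene changed in WT cultures. Adrb1, the beta-1 adrenergic receptor that couples noradrenaline to Gs, was at 8.18, 8.60, 10.7 and 9.06 CPM in WT control libraries 1 to 4 and at 14.1, 16.01, 16.51 and 15.7 CPM after 30 min. Adrb1 lies at chr19:56722199-56733113 in mm10 (GENCODE vM21). All 4 treated libraries lay above all 4 controls, and the level rose in each of the 4 cultures. The log2 fold change was 0.77 ± 0.16 (SE; adjusted p = 0.0197). This and every adjusted p below come from the quasi-likelihood test of edgeR, with Benjamini-Hochberg adjustment across the 16777 genes. By 24 h the WT level was back at 9.14 to 11.8 CPM, overlapping the controls. With 1 of 61 members called (1.64%), the background was 0.37% of all genes tested. The call remained only when WT control replicate 3 or WT 30 min replicate 1 was left out; without any one of the other 6 libraries the adjusted p rose to at most 0.129.

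Values of single libraries are given in the order of replicates 1 to 4 throughout. In KO cultures Adrb1 was at 7.67, 7.46, 7.92 and 5.54 CPM in the controls and at 7.67, 9.61, 6.44 and 11.4 CPM after 30 min. The groups overlapped: culture 1 stayed level, cultures 2 and 4 were higher and culture 3 was lower. No receptor passed the edgeR test at 30 min in KO cultures, against 0.125% of all genes, and DESeq2 also called 0. An unadjusted edgeR p under 0.05 was found for 2 of 61 receptors and 722 of all 16777 genes. The difference between the 2 genotypes' 30 min responses was called for 0 of 61 receptors with edgeR, against 0.0477% of all genes, and for 0 with DESeq2. At an unadjusted edgeR p under 0.05 there were 2 receptors, and 301 of all 16777 genes. For Adrb1 that difference was -0.48 ± 0.23 on the log2 scale, with an adjusted p of 1.

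After 24 h of BDNF in WT cultures, 19 of the 61 receptors differed from control, 8 higher and 11 lower (31.1%, against a background of 18.7% of all genes). The median log2 fold change was -0.16 over the receptors and -0.01 over all genes tested. By main G protein, 3 of 29 Gi/o-coupled receptors rose and 8 fell, 4 of 17 Gq/11-coupled receptors rose and 2 fell, and 1 of 13 Gs-coupled receptors fell while none rose. In KO cultures 11 of 61 changed, 5 higher and 6 lower (18.03%, against 5.61% of all genes), with a median of 0.03 over the receptors and -0.03 over all genes. In both genotypes Npy1r, Avpr1a, Hrh3, Oprl1, Htr1a and Chrm1 fell and Galr1, Gpr50, Htr1b and Htr2a rose. Fitted with the culture as a block, which pairs the libraries of a culture, 27 receptors changed in WT (11 higher, 16 lower) and 19 in KO (9 higher, 10 lower). The block also raised the calls over all 16777 genes, from 3133 to 5298 in WT and from 942 to 2834 in KO. The block added Adora1, Adra1a and Gpr3 (higher) and Chrm4, Htr1d, Htr5a, Prokr1 and Prokr2 (lower) in WT, and Adra1a, Adra1d, Drd5 and Oxtr (higher) and Chrm4, Htr1d, Prokr2 and Sstr1 (lower) in KO. Without KO 24 h replicate 4, 9 receptors were called in KO, and Chrm1 (adjusted p = 0.111) and Drd1 (adjusted p = 0.108) were lost. Over all genes, 985 of 17049 were called in that fit.

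Receptors for neuropeptide Y, galanin, somatostatin, tachykinins and nociceptin changed in both directions. Npy1r (chr8:66697192-66706792), the main postsynaptic neuropeptide Y receptor, was at 43.3, 42.0, 45.7 and 35.6 CPM in WT controls and at 14.2, 17.0, 19.3 and 16.03 CPM after 24 h. In KO cultures the same libraries stood at 38.4, 38.8, 38.2 and 38.6 CPM and at 23.3, 25.4, 25.6 and 25.1 CPM. Treated and control libraries did not overlap in either genotype, and the 24 h libraries of the KO all lay above those of the WT. The log2 fold change was -1.33 ± 0.12 in WT (adjusted p = 9.43e-08) and -0.63 ± 0.12 in KO (adjusted p = 0.00245).

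Galr1, a Gi/o-coupled galanin receptor, was at 0.0601, 0.176, 0.696 and 0.235 CPM in WT controls and at 10.49, 12.7, 12.6 and 7.49 CPM after 24 h. In KO it was at 1.96, 0.714, 1.26 and 0.337 CPM in controls and at 8.69, 7.41, 4.95 and 8.28 CPM after 24 h. The 24 h levels of the genotypes overlapped while all controls of either genotype lay below them. Leaving out 1 library moved the WT log2 fold change of Galr1 between 4.91 and 6.03. The other galanin receptor, Galr2, which couples to Gq/11, was at 1.16 ± 0.276 CPM in WT controls and 1.24 ± 0.278 CPM after 24 h, and did not pass the test in either genotype.

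Sstr2 (chr11:113619342-113626028), a somatostatin receptor of the Gi/o class, was at 19.5, 18.6, 16.8 and 20.7 CPM in WT controls and at 45.4, 38.0, 33.7 and 40.5 CPM after 24 h. All 4 treated libraries were higher, with a log2 fold change of 1.06 ± 0.17 (adjusted p = 0.00016). KO controls were already at 43.6, 35.7, 50.6 and 31.7 CPM, and the KO libraries after 24 h, at 44.2, 51.9, 57.7 and 40.9 CPM, overlapped them (0.27 ± 0.17, adjusted p = 0.436). Sstr1, of the same class, fell in WT: it was at 17.6, 13.4, 15.9 and 27.0 CPM in controls and at 6.16, 4.82, 5.18 and 12.4 CPM after 24 h, with no overlap (-1.37 ± 0.38, adjusted p = 0.0122). In KO the Sstr1 fold change was -0.89 ± 0.37 (adjusted p = 0.186), and -0.90 ± 0.11 with the culture as a block (adjusted p = 2.42e-05). In WT the Sstr1 call was lost if control replicate 4 or 24 h replicate 2 was left out, where the adjusted p was at most 0.0571.

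Tacr3 (chr3:134829007-134934579), the neurokinin B receptor, which couples to Gq/11, was at 1.383, 1.41, 2.84 and 2.82 CPM in WT controls and at 7.86, 9.29, 10.46 and 9.42 CPM after 24 h. Every treated WT library was higher, and the log2 fold change was 2.13 ± 0.39 (adjusted p = 0.000457). KO controls stood at 10.3, 4.79, 12.1 and 3.95 CPM, above all WT controls, and KO 24 h libraries at 15.6, 9.70, 17.8 and 7.22 CPM overlapped them (0.69 ± 0.37, adjusted p = 0.328). Tacr1, the substance P receptor, did not pass the test in any comparison.

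Sstr2 and Tacr3 rose with BDNF over 24 h in WT, and Adrb1 over 30 min. The 120 bases before the transcript start that RefSeq gives for each (GRCm38.p6, plus strand) are printed because their promoters hold letters of motifs read by activity-dependent transcription factors: the cyclic AMP response element TGACGTCA, its shorter core TGACG, which the full element contains on each strand, and the EGR motif GCGNGGGCG. Capitals mark the matches found on either strand. The windows are Sstr2 at chr11:113619207-113619326, Tacr3 at chr3:134828887-134829006 and Adrb1 at chr19:56721997-56722116.
Sstr2: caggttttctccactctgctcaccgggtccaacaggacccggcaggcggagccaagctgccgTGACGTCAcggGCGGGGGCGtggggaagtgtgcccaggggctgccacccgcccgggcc
Tacr3: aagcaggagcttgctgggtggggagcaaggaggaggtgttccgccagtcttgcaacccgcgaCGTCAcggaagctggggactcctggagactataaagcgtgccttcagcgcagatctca
Adrb1: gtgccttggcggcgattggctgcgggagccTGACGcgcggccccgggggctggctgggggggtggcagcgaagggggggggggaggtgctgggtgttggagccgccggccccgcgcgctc

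In Sstr2 the full element begins 58 bases before the start and the EGR motif 47 bases before it. Tacr3 holds the core on the other strand, its first base 58 before the start, and Adrb1 holds it 90 before. Over windows of 300 bases (250 before and 50 after each start), RefSeq promoters matched 56 of the 71 receptors in 72 windows. The full element was in 1.39% of receptor windows, that of Sstr2, and in 1.79% of all 32851 windows, and the core was in 12.5% against 20.8%. The AP-1 motif TGANTCA was in 11.1% of receptor windows and 7.81% of all, and the EGR motif in 8.33% and 5.55%. Receptors that fell in WT at 24 h held motifs too, with TGACG in the window of Avpr1a, the EGR motif in that of Hrh3 and TGANTCA in that of Npy1r, while the windows of Gpr50, Htr1b, Htr2a and Oxtr, which rose, held none of the 4. These matches describe the letters in the windows, and no factor was measured.

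The nociceptin receptor Oprl1 (chr2:181715016-181720985), a Gi/o-coupled relative of the opioid receptors, was at 63.1, 63.7, 52.2 and 63.9 CPM in WT controls and at 35.2, 34.5, 27.4 and 33.0 CPM after 24 h. KO libraries were at 33.1, 36.0, 33.8 and 46.2 CPM in control and at 19.7, 17.8, 19.1 and 32.9 CPM after 24 h. Oprl1 was lower in all treated libraries of both genotypes, by -0.90 ± 0.16 (adjusted p = 0.000274) in WT and -0.74 ± 0.16 (adjusted p = 0.00672) in KO. The KO controls lay below all WT controls and overlapped the WT libraries of 24 h, with 2 of them above all of the latter.

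Peptide receptors of the vasopressin, oxytocin and corticotropin-releasing hormone families also moved. Avpr1a, the Gq/11-coupled vasopressin receptor, fell from 3.49, 3.12, 4.18 and 4.80 CPM to 1.17, 0.689, 1.10 and 2.20 CPM in WT and from 3.77, 3.51, 4.79 and 3.18 CPM to 0.650, 0.564, 0.920 and 1.09 CPM in KO. Its groups did not overlap in either genotype, and the log2 fold change was -1.59 ± 0.29 in WT (adjusted p = 0.000414) and -2.24 ± 0.30 in KO (adjusted p = 0.000138). Oxtr, the oxytocin receptor of the same family and coupling, moved the other way: it was at 2.47, 2.11, 1.80 and 4.47 CPM in WT controls and at 13.5, 9.49, 7.31 and 8.08 CPM after 24 h. All treated WT libraries were higher for Oxtr (1.82 ± 0.42, adjusted p = 0.00325). In KO, Oxtr controls at 2.17, 2.28, 1.495 and 4.72 CPM overlapped the 24 h libraries at 5.82, 4.67, 4.60 and 9.15 CPM (1.21 ± 0.41, adjusted p = 0.0929), and the change passed with the culture as a block (1.25 ± 0.26, adjusted p = 0.00221) and with DESeq2 (adjusted p = 0.0363).

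Crhr1, the main cortical receptor for corticotropin-releasing hormone, couples to Gs. It was at 18.8, 13.2, 9.08 and 16.2 CPM in WT controls and at 6.45, 7.14, 4.21 and 7.33 CPM after 24 h. All 4 treated libraries were below the controls (-1.19 ± 0.22, adjusted p = 0.000536). In KO the controls were at 14.5, 14.7, 10.4 and 15.7 CPM and the treated libraries at 10.3, 11.7, 10.3 and 10.8 CPM, and the groups overlapped (-0.36 ± 0.22, adjusted p = 0.405). Crhr2 was below 1 CPM on average in every group and did not pass the test.

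Among receptors for amines, Hrh3, the Gi/o-coupled histamine receptor that acts as a presynaptic autoreceptor, was at 6.58, 4.46, 5.72 and 7.13 CPM in WT controls and at 2.18, 0.765, 1.55 and 2.31 CPM after 24 h. KO libraries went from 3.58, 5.57, 4.21 and 7.32 CPM to 0.918, 1.39, 0.690 and 1.76 CPM. Treated libraries lay below controls in both genotypes, by -1.81 ± 0.32 (adjusted p = 0.000292) in WT and -2.10 ± 0.32 (adjusted p = 0.000549) in KO. Adra1d, a Gq/11-coupled alpha-1 adrenergic receptor, rose in WT from 0.752, 0.594, 0.812 and 0.847 CPM to 1.33, 2.75, 2.05 and 3.21 CPM. Its groups did not overlap in WT (1.64 ± 0.38, adjusted p = 0.00364) nor in KO, where the log2 fold change of 1.19 ± 0.38 had an adjusted p of 0.0655. In KO Adra1d passed with the culture as a block (1.14 ± 0.36, adjusted p = 0.0323) and with DESeq2 (adjusted p = 0.0206). Adra2c, a Gi/o-coupled alpha-2 receptor, fell in WT by -0.49 ± 0.17 (adjusted p = 0.0471), from 8.54 ± 1.18 to 6.08 ± 0.921 CPM (SD, n = 4), and the call was kept only when WT control replicate 2 was the library left out (adjusted p up to 0.182 otherwise).

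Of the 12 serotonin receptors, 2 rose and 2 fell in WT. Htr1b, a Gi/o-coupled receptor of axon terminals, went from 7.998, 11.4, 12.9 and 7.13 CPM to 16.6, 22.8, 30.2 and 12.3 CPM. The highest control of Htr1b lay just above the lowest treated library, but each culture rose; the log2 fold change was 1.05 ± 0.31 (adjusted p = 0.0176). In KO it went from 6.44, 4.92, 4.42 and 3.61 CPM to 10.9, 13.4, 12.4 and 19.1 CPM without overlap (1.52 ± 0.31, adjusted p = 0.00542). Htr2a, the Gq/11-coupled receptor at which serotonergic psychedelics act, rose by 0.56 ± 0.19 in WT (adjusted p = 0.0388) and 0.88 ± 0.19 in KO (adjusted p = 0.00632). Htr1a, the somatodendritic Gi/o-coupled receptor, fell from 9.28 ± 0.872 to 4.84 ± 1.12 CPM in WT (-0.94 ± 0.26, adjusted p = 0.0124) and from 7.15 ± 1.71 to 3.20 ± 1.22 CPM in KO (-1.16 ± 0.26, adjusted p = 0.0106). Htr1f, also Gi/o-coupled, fell in WT from 1.80, 2.79, 3.69 and 1.08 CPM to 0.345, 0.689, 1.23 and 0.439 CPM, with overlap at 1 library (-1.79 ± 0.59, adjusted p = 0.0353).

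Several of these calls rested on single libraries. In WT, Htr1b was lost without control replicate 1, control replicate 4 or 24 h replicate 3 (adjusted p at most 0.0959). Htr2a in WT was lost without control replicate 1, 2 or 3 or 24 h replicate 2 or 3 (at most 0.215), and Htr1f without control replicate 2 or 3 or 24 h replicate 1, 2 or 4 (at most 0.118). In KO, Htr1a was lost without 24 h replicate 1 (0.0535).

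Chrm1, the Gq/11-coupled muscarinic receptor of cortical pyramidal cells, fell from 56.7, 53.7, 50 and 67.4 CPM to 42.1, 36.7, 25.9 and 47.1 CPM in WT. In KO it went from 98.8, 86.9, 80.5 and 74.4 CPM to 62.6, 55.9, 65.4 and 50.1 CPM. Neither genotype's groups overlapped, and the log2 fold changes were -0.58 ± 0.16 (adjusted p = 0.0102) and -0.54 ± 0.16 (adjusted p = 0.0427). The WT call for Chrm1 was lost without 24 h replicate 3 (0.0546), and the KO call was lost whichever of the 8 libraries was left out (0.0513 to 0.14). Gabbr1 fell in WT from 826 ± 41.3 to 693 ± 58.5 CPM (-0.25 ± 0.09, adjusted p = 0.0472), a call kept only when the library left out was WT 24 h replicate 4 (at most 0.144 otherwise). Its partner Gabbr2 did not pass the test (-0.12 ± 0.11 in WT, adjusted p = 0.496).

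Gpr50, an orphan receptor related to those for melatonin, was at 0, 0.176, 0.406 and 0.0941 CPM in WT controls and at 1.11, 2.60, 4.36 and 1.19 CPM after 24 h. KO libraries were at 1.08, 1.55, 1.495 and 1.35 CPM in control and at 6.16, 7.97, 3.79 and 2.703 CPM after 24 h. Treated libraries were higher in both genotypes, with log2 fold changes of 3.76 ± 0.65 (adjusted p = 0.000266) in WT, where leaving out 1 library moved the value between 3.26 and 4.55, and 1.91 ± 0.55 (adjusted p = 0.0417) in KO. The KO call for Gpr50 was kept only when KO 24 h replicate 4 was the library left out (at most 0.146 otherwise). Drd1, the Gs-coupled dopamine receptor, was called in KO alone, from 6.61, 7.98, 6.32 and 6.35 to 8.74, 9.06, 9.09 and 12.1 CPM (0.51 ± 0.14, adjusted p = 0.0344; 0.27 ± 0.14 and 0.201 in WT). That KO call was lost without KO control replicate 1, 3 or 4 or KO 24 h replicate 2 or 4 (at most 0.108).

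**Figure D2:**
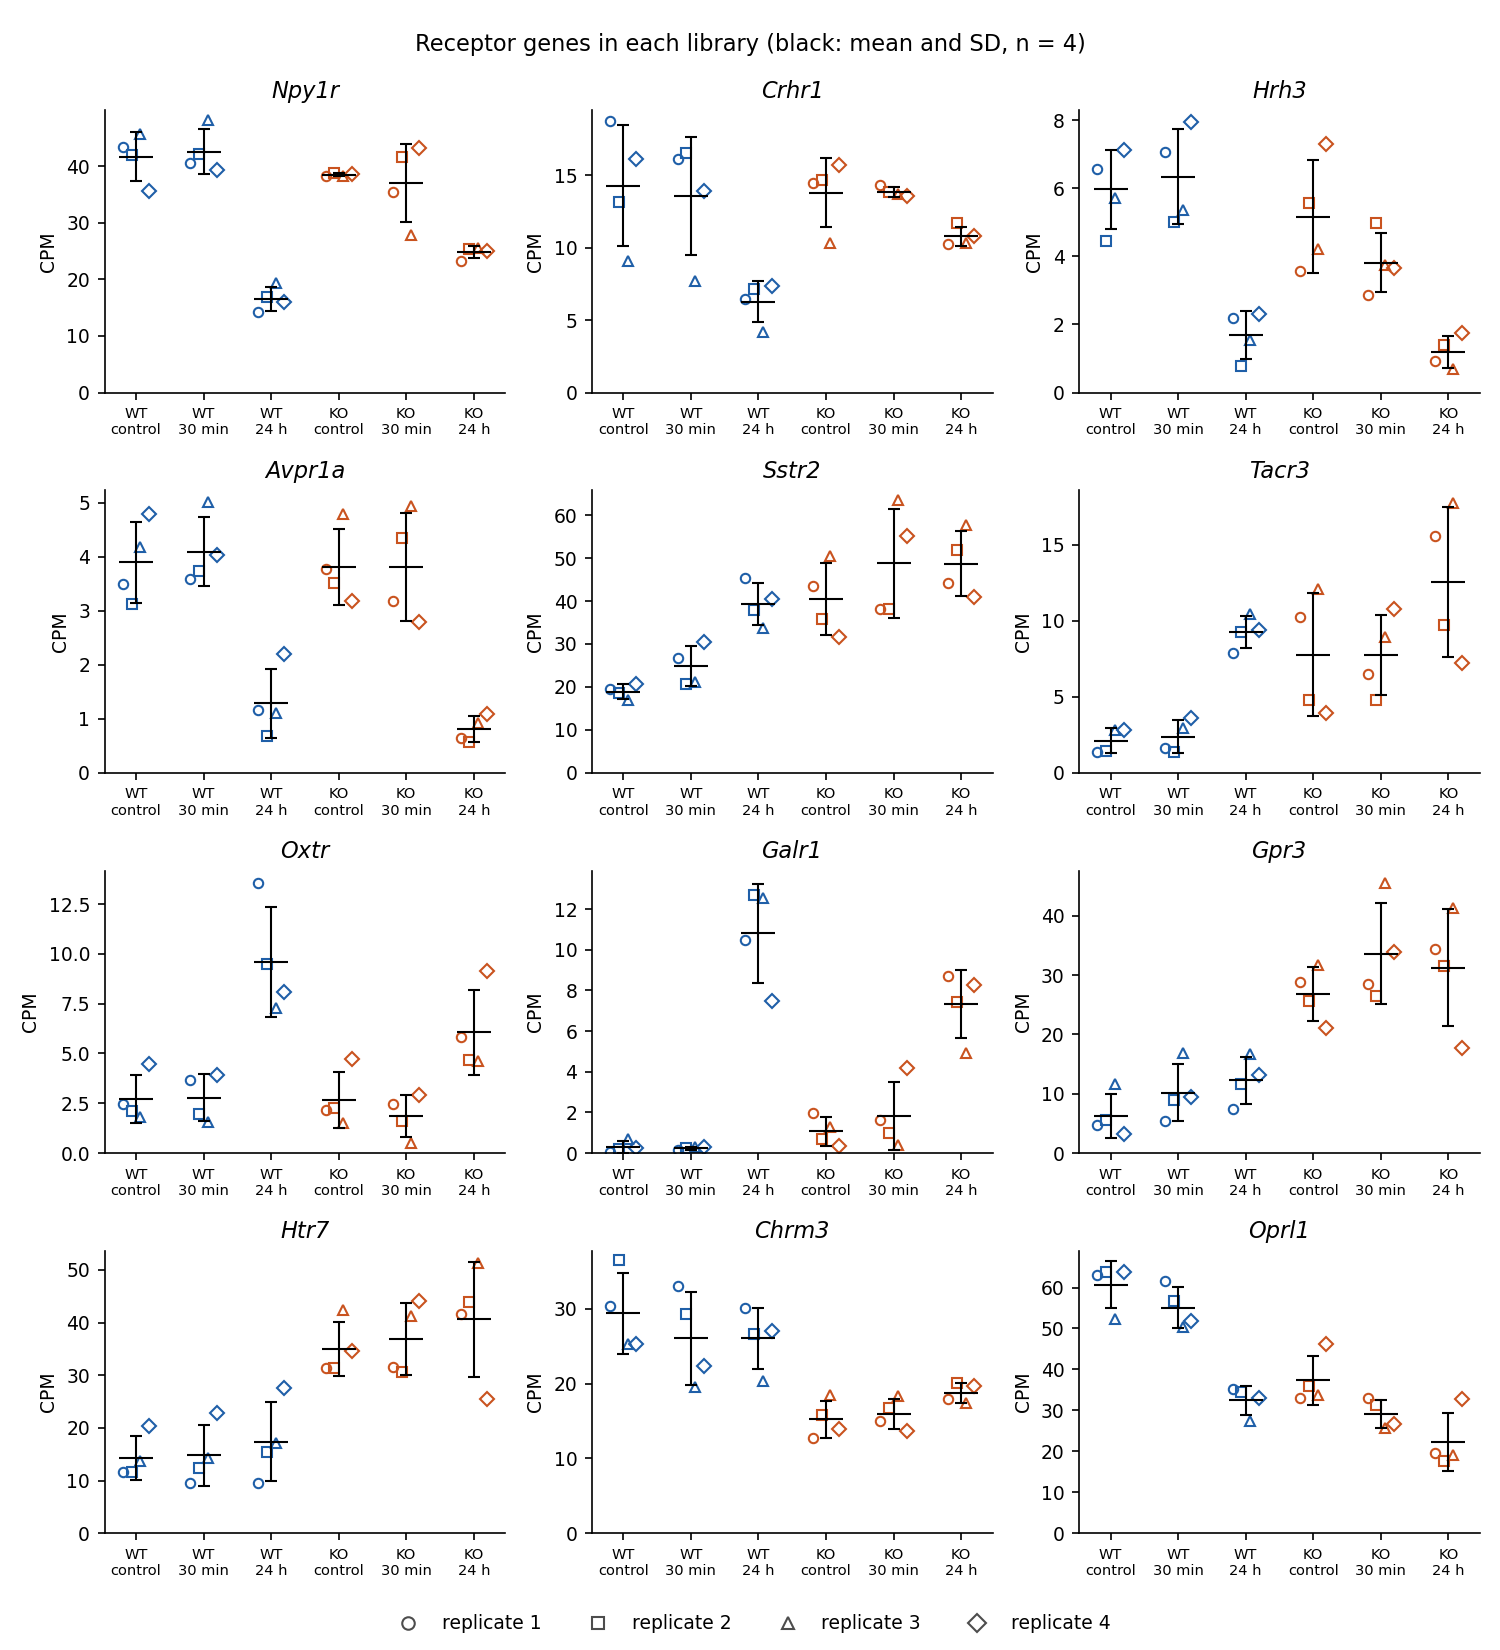
CPM of 12 receptor genes in every library, by group; symbols give the replicate number, black marks the mean and SD of 4 libraries. Npy1r, Hrh3, Avpr1a and Oprl1 are lower after 24 h in both genotypes, while Sstr2 and Tacr3 in KO controls overlap the WT libraries of 24 h.

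**Figure D3:**
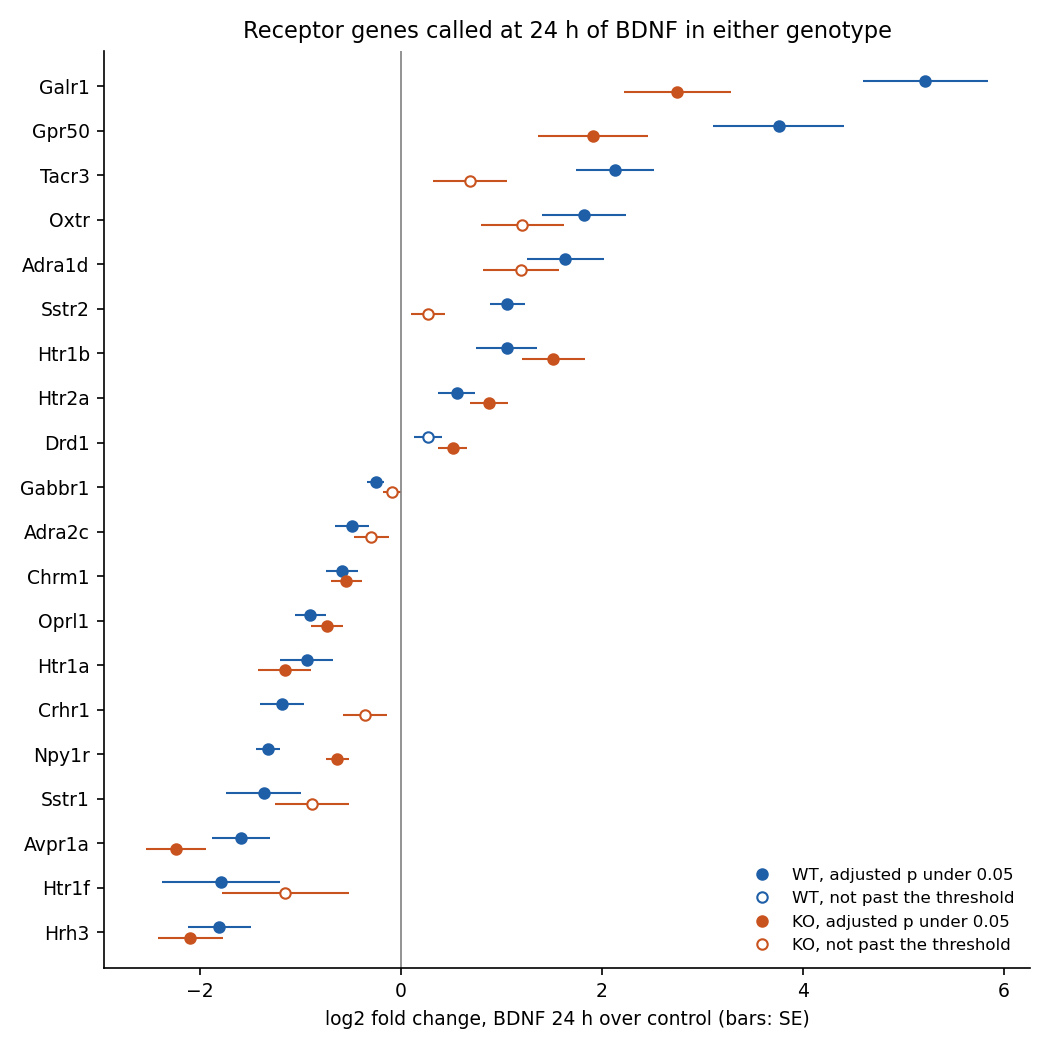
Log2 fold change after 24 h of BDNF against control, ± SE, for the 20 receptors called in either genotype; filled points have an adjusted p under 0.05. WT and KO points lie on the same side of 0 for each receptor.

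Whether the 24 h response differed between the genotypes was tested directly. The difference was called by edgeR for 0 of 61 receptors, against 0.0358% of all genes, and DESeq2 called 1 receptor and 61 genes in all. At an unadjusted edgeR p under 0.05 there were 9 receptors, and 940 of all 16777 genes. The smallest p belonged to Npy1r, whose log2 fold change was less negative in KO by 0.69 (unadjusted p = 0.000367, adjusted p = 0.189). With DESeq2 its difference was 0.70 with an adjusted p of 0.0205. With the culture as a block, by the code that pairs the libraries, 3 receptors passed: Npy1r at 0.69 (adjusted p = 0.0117), Crhr1 at 0.82 (0.0189) and Sstr2 at -0.78 (0.0268). With that block 299 of all 16777 genes passed. The other receptors with an unadjusted p under 0.05 in the unblocked fit were Chrm3, Galr1, Gpr50, Htr5b, Prokr1 and Tacr3. None of these passed adjustment with edgeR or DESeq2 on all 24 libraries. Galr1 passed with edgeR without KO culture 4 and KO 30 min replicate 3 (-2.77, adjusted p = 0.0443).

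Between the genotypes, 20 of 61 receptors differed in control cultures, 9 higher and 11 lower in KO (32.8%, against a background of 21.4% of all genes). At 30 min of BDNF 26 differed, 12 higher and 14 lower (42.6%, against 28.4%), and at 24 h 11 differed, 9 higher and 2 lower (18.03%, against 13.3%). The median log2 difference over the receptors was -0.11, -0.06 and -0.04, and over all genes 0.03, 0.02 and 0.00. In control cultures 8 of 29 Gi/o-coupled receptors were lower in KO and 2 higher, 3 of 17 Gq/11-coupled receptors were higher and 2 lower, and 2 of 13 Gs-coupled receptors were higher and 1 lower. At 24 h the Gi/o class had 3 higher and 1 lower, the Gq/11 class 3 higher and the Gs class 3 higher and 1 lower. These 24 h counts changed in the fit that dropped every KO culture 4 library and replicate 3 of KO at 30 min. It added the Gi/o-coupled Adora1, Adra2c, Htr1a, Htr1f, Htr5a, Oprm1 and Sstr4 as lower and Gabbr2 and Sstr2 as higher. Of the Gq/11 class it added Avpr1a, Chrm3, Oxtr and Prokr1 as lower and Htr2a as higher, and of the Gs class Htr4 as higher. Calls over all genes rose there too, from 2223 of 16777 to 5435 of 17393. Adra1a, Chrm1, Gpr3 and Htr7 were higher and Drd1 and Oprl1 lower in KO in all 3 conditions. The comparisons in the 3 conditions use separate libraries, but those with the same code, taken here as a culture, may share their cells' origin.

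Markers of several cell types moved with genotype as well. In control cultures 5 of 6 inhibitory neuron markers were higher in KO, with summed levels of 1008 to 2008 CPM in WT and 2265 to 3078 CPM in KO, and 4 of 6 excitatory markers were lower, with 712 to 1060 CPM against 511 to 586 CPM. At 30 min the inhibitory sums were 1006 to 2217 and 2336 to 3101 CPM and the excitatory sums 646 to 1021 and 453 to 523 CPM, with the same counts of 5 and 4. At 24 h 3 of 6 inhibitory markers were higher and 3 of 6 excitatory markers lower, and the sums overlapped (1090 to 2623 and 1663 to 3299 CPM for inhibitory, 493 to 825 and 384 to 696 CPM for excitatory markers). The lowest inhibitory and the highest excitatory KO sum at 24 h were both replicate 4; the other 3 excitatory sums, at 384, 450 and 456 CPM, lay below all of WT. Among 5 tested pan-neuronal markers, Tubb3 and Rbfox3 were lower in KO in control and at 30 min, and Syt1 higher at 30 min and 24 h. Of 6 tested oligodendrocyte lineage markers Mog was lower in KO in all 3 conditions and Mbp at 24 h, of 5 tested astrocyte markers 3 were lower at 30 min (Aldh1l1, Slc1a3 and Aqp4), of 4 tested microglial markers Csf1r was higher in control and at 30 min, and of 4 tested endothelial and mural markers Pdgfrb was higher at 30 min. The part of these markers in the receptor differences was not tested. With BDNF over 24 h in WT, 1 of 6 inhibitory markers (Npy) and 1 of 6 excitatory markers (Slc17a6) rose and 1 excitatory marker (Neurod2) fell, while 2 of 5 pan-neuronal markers fell, Tubb3 from 1547 ± 27.0 to 956 ± 54.5 CPM and Rbfox3 from 82.6 ± 13.2 to 41.5 ± 6.99 CPM. The pan-neuronal sum was 5689 to 5767 CPM in controls and 5079 to 5625 CPM after 24 h. Mbp, a myelin gene, rose from 25.2 ± 4.00 to 62.9 ± 15.7 CPM, and the part of these markers in the 24 h response was not tested.

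**Figure D4:**
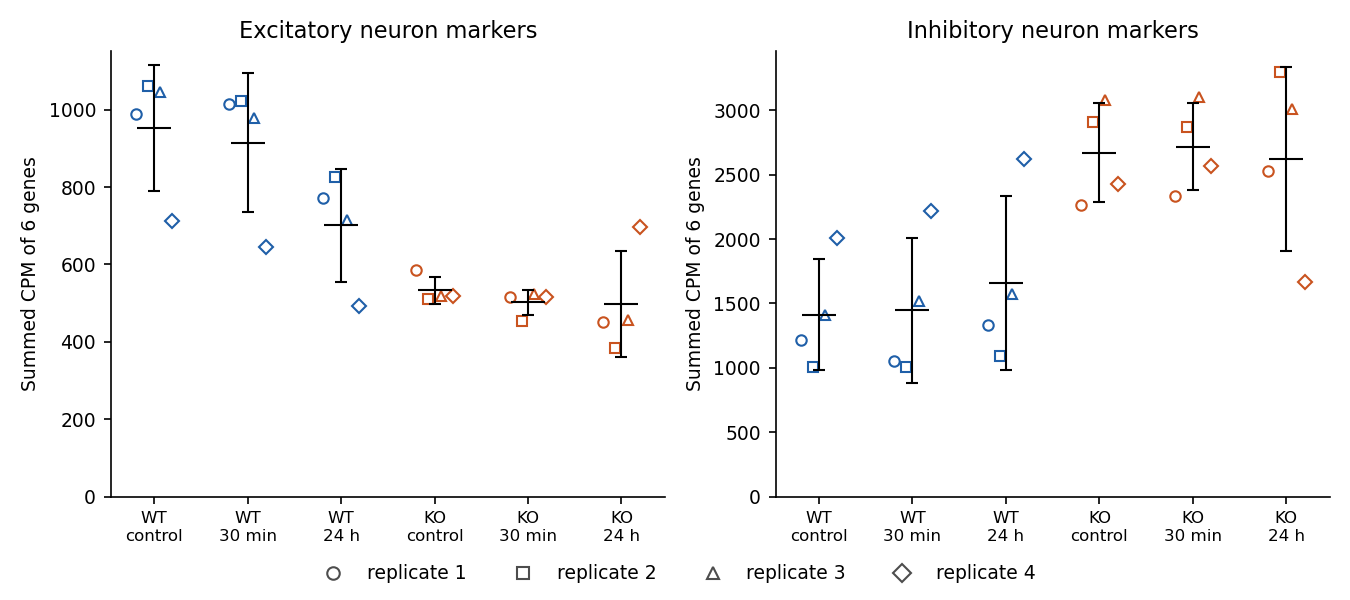
Summed CPM of 6 excitatory and 6 inhibitory neuron markers in every library, by group. KO control and 30 min libraries lie above all WT libraries of the same condition for inhibitory markers and below them for excitatory markers; at 24 h the genotypes overlap, for excitatory markers through KO replicate 4 (696 CPM) alone.

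Serotonin receptors differed in both directions. Htr7 (chr19:35958734-36057507), a Gs-coupled receptor, was at 11.6, 11.5, 13.8 and 20.4 CPM in WT controls and at 31.4, 31.4, 42.4 and 34.6 CPM in KO controls. All KO libraries were higher (1.29 ± 0.28, adjusted p = 0.00207), and the difference was 1.32 ± 0.28 at 30 min (adjusted p = 0.00128) and 1.22 ± 0.28 at 24 h (adjusted p = 0.00577). At 24 h the WT libraries were at 9.56, 15.4, 17.2 and 27.5 CPM and the KO libraries at 41.6, 44.0, 51.4 and 25.5 CPM, so that KO 24 h replicate 4 fell within the WT range. Htr5b, whose gene overlaps a pseudogene on the opposite strand, was at 0.601, 1.19, 0.551 and 0.565 CPM in WT and 2.64, 2.74, 2.51 and 1.93 CPM in KO controls. Its KO libraries were all higher (1.75 ± 0.34, adjusted p = 0.000712), also at 30 min (1.99 ± 0.34, adjusted p = 0.000152), and the 24 h difference was 0.77 ± 0.33 (adjusted p = 0.134).

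Htr1f and Htr5a, both of the Gi/o class, were lower in KO. Htr1f was at 0.141, 1.08, 0.747 and 0.0963 CPM in KO controls, just under the lowest WT control in its highest library (-2.11 ± 0.60, adjusted p = 0.014, and -2.83 to -1.80 with 1 library left out). Htr5a was at 21.8, 19.6, 22.7 and 20.6 CPM in WT and 15.97, 16.3, 13.4 and 6.69 CPM in KO controls, without overlap (-0.69 ± 0.17, adjusted p = 0.00616). Htr1b was lower in KO controls (-1.01 ± 0.31, adjusted p = 0.023), a call lost without WT control replicate 2 or 3 or KO control replicate 3 or 4 (at most 0.0763).

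Gpr3 (chr4:133209340-133212536), a receptor that raises cyclic AMP through Gs without an added ligand, was at 4.78, 5.63, 11.6 and 3.18 CPM in WT controls and at 28.8, 25.6, 31.7 and 21.1 CPM in KO controls. The groups did not overlap in any condition. The log2 difference was 2.09 ± 0.36 in control (adjusted p = 0.000216), 1.73 ± 0.35 at 30 min (adjusted p = 0.000825) and 1.35 ± 0.35 at 24 h (adjusted p = 0.0116). The last call was lost without WT 24 h replicate 1 or KO 24 h replicate 3 (at most 0.0536). Gpr50 was higher in all KO controls (3.01 ± 0.65, adjusted p = 0.00194, and 2.63 to 3.79 with 1 library left out). At 30 min its pooled counts of 360 in KO and 22 in WT gave a level 20.9-fold higher, with an exact Poisson 95% interval of 13.6 to 33.7 that covers counting error only.

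Adrenergic and dopamine receptors differed by subtype. Adra1a, of the Gq/11 class, was at 6.64, 7.04, 8.47 and 5.32 CPM in WT controls and at 21.7, 23.0, 17.1 and 7.84 CPM in KO controls. KO culture 4 was the lowest of the KO cultures in each condition, at 7.84, 9.44 and 10.9 CPM, and in control and at 24 h it lay within the WT range. The log2 difference for Adra1a was 1.35 ± 0.31 in control (adjusted p = 0.00335), 1.40 ± 0.31 at 30 min (adjusted p = 0.00181) and 1.04 ± 0.31 at 24 h (adjusted p = 0.0269, lost without WT 24 h replicate 1, 2 or 3 or KO 24 h replicate 1, 2 or 3, at most 0.119). Adra2c was lower, at 5.52, 6.44, 5.16 and 4.43 CPM in KO controls against 9.83, 7.25, 7.89 and 9.20 CPM in WT controls (-0.66 ± 0.17, adjusted p = 0.00783), and by -1.04 ± 0.17 at 30 min (adjusted p = 0.00011). Adrb1 was lower in KO at 30 min, when it rose in WT (-0.83 ± 0.16, adjusted p = 0.000527).

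Drd1 was at 12.5, 11.7, 11.2 and 8.78 CPM in WT controls and at 6.61, 7.98, 6.32 and 6.35 CPM in KO controls. All KO libraries were lower in control (-0.69 ± 0.14, adjusted p = 0.00116) and at 30 min (-1.06 ± 0.14, adjusted p = 1.4e-05). At 24 h the difference was -0.45 ± 0.14 (adjusted p = 0.0353), and KO 24 h replicate 4 at 12.1 CPM overlapped the WT range of 11.9 to 15.6 CPM. That call was lost without WT 24 h replicate 1 or 2 or KO 24 h replicate 1, 2 or 3 (at most 0.114). The other Gs-coupled dopamine receptor, Drd5, and Drd4 did not pass the test.

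The Gq/11-coupled muscarinic receptors Chrm1 and Chrm3 differed in opposite directions. Chrm1 was higher in all KO libraries of each condition (0.58 ± 0.16 in control, adjusted p = 0.01; 0.59 ± 0.16 at 30 min, adjusted p = 0.00716; 0.62 ± 0.16 at 24 h, adjusted p = 0.0104). Its control call was lost without KO control replicate 1 (0.056), and its 24 h call without WT 24 h replicate 3 (0.0551). Chrm3 was at 30.3, 36.6, 25.3 and 25.2 CPM in WT controls and at 12.7, 15.7, 18.4 and 13.96 CPM in KO controls. Every KO library of Chrm3 was lower than every WT library in all 3 conditions, with differences of -0.95 ± 0.17 in control (adjusted p = 0.000243), -0.71 ± 0.16 at 30 min (adjusted p = 0.00239) and -0.47 ± 0.16 at 24 h (adjusted p = 0.0573).

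Of the 4 opioid-family genes, 3 were lower in KO in control cultures and at 30 min, and 1 at 24 h, and of the 2 prokineticin receptors 1 was lower in control and at 30 min. In control these were Oprl1 by -0.70 ± 0.16 (adjusted p = 0.00228), Oprm1 and Oprk1, all Gi/o-coupled, and Prokr1. Oprm1, the mu opioid receptor, was at 1.68, 1.74, 0.900 and 0.353 CPM in WT and 0.354, 0.0317, 0.136 and 0 CPM in KO controls, which touch at 1 library (-3.07 ± 0.78, adjusted p = 0.00683; -4.35 to -2.67 with 1 library left out). Oprk1, the kappa receptor, had 104 counts over the WT and 4 over the KO controls, a level 26.0-fold lower with an interval of 9.85 to 97.2. The lowest WT control library of Oprk1 was at 0, so that the groups overlapped. This interval and those of Prokr1 cover counting error only. Prokr1, a Gq/11-coupled prokineticin receptor, had 318 counts in WT and 21 in KO controls (15.1-fold lower, 9.73 to 24.8) and 335 and 10 at 30 min (26.3-fold lower, 14.1 to 55.3). The delta opioid receptor Oprd1 and Prokr2 did not pass the test.

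At 24 h Prokr1 was at 0.0765, 0.0403, 0.172 and 1.06 CPM in KO, the last value being replicate 4, and at 0.531, 0.612, 0.350 and 0.790 CPM in WT. Oprl1 at 24 h was lower by -0.54 ± 0.16 (adjusted p = 0.0244), with KO replicate 4 at 32.9 CPM inside the WT range. That call was lost without WT 24 h replicate 1 or 2 or KO 24 h replicate 1, 2 or 3 (at most 0.0893).

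Sstr2 and Tacr3 were higher in KO before BDNF. The log2 difference of Sstr2 was 1.09 ± 0.17 in control (adjusted p = 0.000105) and 0.97 ± 0.17 at 30 min (adjusted p = 0.000241), and at 24 h it was 0.30 ± 0.17 (adjusted p = 0.274), with overlapping libraries. For Tacr3 the values were 1.88 ± 0.39 (adjusted p = 0.00128), 1.69 ± 0.39 (adjusted p = 0.00215) and 0.44 ± 0.37 (adjusted p = 0.495). Galr1 was higher in KO controls by 1.91 ± 0.61 (adjusted p = 0.0269, and 1.41 to 2.72 with 1 library left out), a call lost without WT control replicate 1, 2 or 4 or KO control replicate 1 or 3 (at most 0.129). Npy2r, the presynaptic neuropeptide Y receptor, was lower in KO controls with overlap, and WT culture 4 alone held 6.16 of its WT values of 1.26, 0.550, 0.116 and 6.16 CPM (-3.66 ± 1.08, adjusted p = 0.0179). It was lost without WT control replicate 4 or KO control replicate 1 or 3 (at most 0.195).

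At 30 min alone, Adrb1, Drd2, Htr1a and Htr6 were lower and Galr2, Hrh1 and Htr2b higher in KO. Apart from Adrb1, these calls had adjusted p-values of 0.0173 to 0.0439, and those of Galr2, Drd2, Hrh1, Htr1a and Htr2b were lost without KO 30 min replicate 3, the library with the fewest detected genes, and also without other single libraries. The call for Htr6 was lost without WT 30 min replicate 3 or 4 or KO 30 min replicate 2, and over these 6 receptors the adjusted p with 1 library left out reached at most 0.193. Htr2b had pooled counts of 60 in KO and 27 in WT at 30 min, a level 2.84-fold higher. Its exact Poisson 95% interval of 1.77 to 4.65 covers counting error only, and its gene overlaps Psmd1 on the opposite strand. At 24 h but not in the other conditions, Npy1r, Crhr1, Gabbr1, Chrm4 and Htr2c were called higher in KO, although DESeq2 also called Chrm4 (0.50 ± 0.19, adjusted p = 0.0373) and Htr2c (0.64 ± 0.25, adjusted p = 0.0423) in control. Npy1r was higher in all 4 KO libraries (0.58 ± 0.12, adjusted p = 0.00246) and the call held without any one library, as did that of Htr7. Crhr1 was also higher in all 4 (0.78 ± 0.22, adjusted p = 0.021) but lost the call without WT 24 h replicate 1 or 3 or KO 24 h replicate 2 (at most 0.0869). The call of Gabbr1 (0.27 ± 0.09, adjusted p = 0.0489) was lost without any one of WT or KO 24 h replicates 1 to 3 (at most 0.242), and with RLE factors, no count filter, the set of libraries (by library number) as a covariate or only the groups compared. That of Htr2c (0.76 ± 0.24, adjusted p = 0.0409) was lost without WT 24 h replicate 1, 2 or 3 or KO 24 h replicate 1 or 3 (at most 0.183) and with only the groups compared, and that of Chrm4 (0.73 ± 0.19, adjusted p = 0.012) without WT 24 h replicate 1 or KO 24 h replicate 1 or 2 (at most 0.0622). In set 2 alone (2 WT and 3 KO cultures), where fewer libraries enter, all 11 calls at 24 h were lost, those of Npy1r and Htr7 included.

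Without KO 24 h replicate 4, 16 receptors were called at 24 h, against 3138 of the 17049 genes tested in that fit. The 5 added were Htr2a, higher in KO (0.63 ± 0.19, adjusted p = 0.0193), and Adora1 (-0.63 ± 0.20, adjusted p = 0.0292), Htr1a (-0.89 ± 0.26, adjusted p = 0.0198), Oprm1 (-2.40 ± 0.78, adjusted p = 0.0352) and Prokr1 (-2.61 ± 0.67, adjusted p = 0.00811), lower in KO. The count of receptors fell to 3 without WT 24 h replicate 1, 7 without WT 24 h replicate 2 and 5 without any one of KO 24 h replicates 1 to 3. Calls over all genes in these fits were 1278, 1555 and 1216 to 1267, against 2223 in the main fit.

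**Figure D5:**
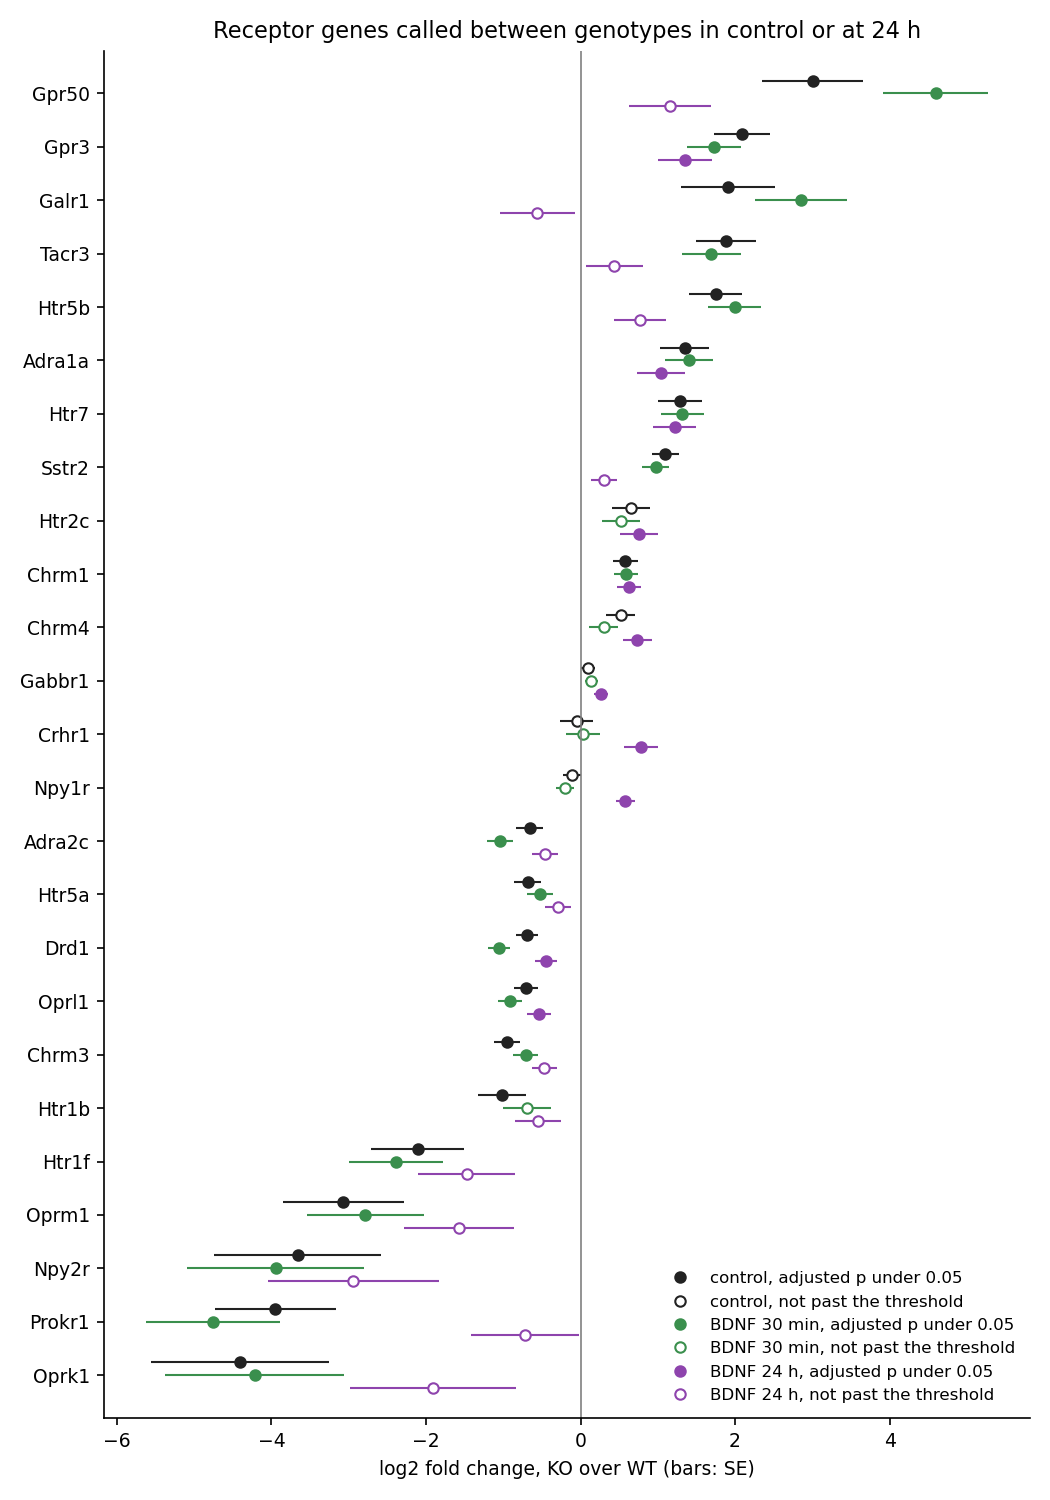
Log2 difference of KO against WT, ± SE, in control, at 30 min and at 24 h for the 25 receptors called in control or at 24 h; filled points have an adjusted p under 0.05. Gpr3 and Htr7 stay above 0 and Oprl1 and Drd1 below 0 in all 3 conditions, while Sstr2 and Tacr3 come closer to 0 at 24 h; the values of Oprk1 and Prokr1, and of Gpr50 at 30 min, rest on groups with few counts.

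The share of all genes called in at least 1 of the 9 comparisons was not counted, so the next count has no background beside it. Altogether 38 of the 61 tested receptors were called in at least 1 of the 9 comparisons and 23 in none. The latter include abundant transcripts: Cnr1 was at 350 ± 180 CPM in WT controls and its fold changes lay between -0.09 and 0.21 in the 24 h and genotype comparisons, each with an SE of 0.30. Adora1, the inhibitory adenosine receptor, was at 164 CPM in WT controls and 216 CPM after 24 h (0.40 ± 0.19, adjusted p = 0.15), and passed with the culture as a block (adjusted p = 0.0124). Prokr2 was at 31.9 CPM in WT controls and 23.3 CPM after 24 h (-0.45 ± 0.19, adjusted p = 0.111), and passed with the culture as a block in WT (-0.47 ± 0.10, adjusted p = 0.00146) and in KO (-0.44 ± 0.10, adjusted p = 0.00595). Chrm2, at 13.2 CPM in WT controls, changed by -0.19 ± 0.21 with BDNF over 24 h in WT and differed by 0.12 ± 0.21 in KO controls, neither past the test. Adra1b (0.37 ± 0.31) and Adra2a (0.32 ± 0.20), at about 10 CPM, did not pass in WT at 24 h.

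Uncalled subtypes of called families had wide errors at low levels. In WT after 24 h the log2 fold change was 0.02 ± 0.42 for Sstr3 and 0.67 ± 0.40 for Sstr4, -0.08 ± 0.41 for Tacr1, -1.04 ± 0.53 for Npy5r and -1.14 ± 0.67 for Oprd1, none past the test in the main fit. It was -1.53 ± 0.82 for Htr1d (-1.75 ± 0.62 with the culture as a block, adjusted p = 0.0376), -0.85 ± 0.43 for Htr4, -0.44 ± 0.64 for Chrm5 and 0.43 ± 0.51 for Crhr2. With edgeR without KO culture 4 and KO 30 min replicate 3, 3 of these WT changes had smaller errors and passed. They were Npy5r (SE 0.38, adjusted p = 0.0452), Oprd1 (SE 0.37, adjusted p = 0.0238) and Htr4 (SE 0.29, adjusted p = 0.0307). Hrh2 was at 1.39 CPM in WT both before and after 24 h. Adora2a, Adora2b, Adrb3, Drd4, Drd5 and Npy4r averaged below 1 CPM in each of the 6 groups. These values do not show that the levels were equal.

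Genes that act below the receptors were counted from 8 lists. Their counts stand beside a background of 18.7% of all genes called in WT at 24 h (1602 higher and 1531 lower of 16777), 5.61% in KO and 21.4% between the genotypes in control. Of 25 tested G protein subunits, 1 rose and 7 fell in WT after 24 h, and in KO 1 fell. Gng7, a gamma subunit, was at 186, 185, 179 and 203 CPM in control and at 91.0, 84.4, 81.8 and 97.2 CPM after 24 h, with all treated libraries lower. The log2 fold change was -1.09 ± 0.09 (adjusted p = 6.29e-08) in WT and -0.68 ± 0.09 (adjusted p = 0.000154) in KO. Of 8 adenylyl cyclases, which make cyclic AMP, 3 fell in WT after 24 h and 4 were lower in KO controls, while none rose in either; in KO after 24 h 0 of 8 were called by edgeR, with a median log2 fold change of 0.06. The neuronal cyclase Adcy1 fell by -1.04 ± 0.17 in WT (adjusted p = 0.000157) and was lower in KO controls by -0.77 ± 0.17 (adjusted p = 0.00232).

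Of 4 GIRK channel genes, 2 fell in WT and 1 in KO after 24 h: Kcnj9 went from 29.8, 27.9, 27.4 and 26.4 CPM to 13.2, 12.2, 10.9 and 13.1 CPM (-1.18 ± 0.13, adjusted p = 1.93e-06), and by -0.88 ± 0.13 in KO (adjusted p = 0.000459). Among 7 receptor kinases and arrestins, which shut receptors off, edgeR called 0 in KO, while 1 rose and 1 fell in WT, the latter being Grk3, at 85.6, 73.6, 63.2 and 68.0 CPM in control and 31.2, 29.7, 32.0 and 36.6 CPM after 24 h (-1.16 ± 0.14, adjusted p = 4.82e-06). Of 12 phosphodiesterases, which degrade cyclic nucleotides, 3 rose and 2 fell in WT and 1 rose in KO, with Pde1c higher in WT by 1.73 ± 0.28 (adjusted p = 0.000122). Of 15 protein kinase A and CREB genes 4 rose and 3 fell in WT, and 1 rose and 2 fell in KO. Of 10 phospholipase C and inositol trisphosphate receptor genes 2 rose and 1 fell in WT, and 1 rose in KO.

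Of 12 peptide precursors, 2 rose in WT and 1 in KO after 24 h and none fell. Pnoc, the precursor of nociceptin, was at 22.8, 26.9, 45.2 and 28.0 CPM in control and at 58.1, 80.4, 134 and 105 CPM after 24 h, while its receptor Oprl1 was lower. Treated libraries were all higher, with a log2 fold change of 1.62 ± 0.35 (adjusted p = 0.00179), and in KO 1.26 ± 0.34 (adjusted p = 0.032). Npy, which is also among the inhibitory neuron markers, rose by 1.28 ± 0.33 in WT (adjusted p = 0.00711), while its receptor Npy1r fell. In KO controls Npy was at 125, 108, 113 and 151 CPM against 17.1, 9.23, 13.8 and 26.3 CPM in WT, without overlap (2.90 ± 0.34, adjusted p = 5.2e-06), and Pnoc (1.71 ± 0.35, adjusted p = 0.00109) and Tac1, the substance P precursor (0.97 ± 0.33, adjusted p = 0.0388), were higher too. The inhibitory marker sums given above moved in the same direction, and their part in these values was not tested.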

How the data were processed

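The authors deposited 1 table of raw read counts per gene for all 24 libraries, made from TruSeq Stranded mRNA libraries per the labels' protocols. The submitters' processing notes name the mm10 build and, among tools, edgeR 3.40.2, STAR 2.7.9a, limma 3.54.2 and DESeq2 1.38.3. How reads were counted, with which strand setting and annotation, was not given in the sources used here, so that reads of receptors that overlap a gene on the opposite strand (such as Htr5b, Hrh3, Gpr3, Sstr2, Oprm1 and Chrm3) may be shared. Gene names and exon lengths came from GENCODE vM21, which named 45229 of the 45792 genes; the others hold 0.0662% of counts. Receptors and lists were chosen with earlier results of these data known.

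Counts were fitted with edgeR 4.0.16 (quasi-likelihood, 1 mean per group over all 24 libraries, TMM factors, filterByExpr with a minimum count of 10), with p-values adjusted over all 16777 genes and called under 0.05. The script was tested on simulated data. Fold changes of groups with few counts are given as ratios of pooled counts with exact 95% Poisson intervals. Receptors called in at least 1 of the 9 comparisons were described in full up to 22, ranked by their smallest adjusted p, with values for the 10 highest per kb and for uncalled subtypes of called families; up to 4 genes per list were open to naming by size of change. Other receptors were named after their values were seen.

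Pairing came from a code in the sample descriptions that ties 1 library of each condition together within a genotype, called a culture here. Deviations from the group means of libraries with the same code correlated at 0.0464 to 0.462, above 0.1 in 22 of 24 pairs, both others holding KO 30 min replicate 3; between genotypes replicate numbers gave -0.0893 to 0.0426 and pair nothing. Nothing further is known of how cultures were split. The p-values of the main fit rest on the spread between libraries within groups. That fit treats the 24 libraries as independent and leaves out the correlation within a code, which only the fit with the culture as a block takes up. Set 1 holds WT replicates 1 and 2 and KO replicate 1, and set 2 the others, by library numbers in the descriptions. Alternatives were DESeq2 1.42.0, RLE factors, no count filter, fits of only the groups compared, the set of libraries as a covariate or set 2 alone, the replicate block, and leaving out libraries.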

Additional observations from a re-analysis of the deposited data

Results flagged for a closer look

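Among 4 libraries of a group, 1 library stood apart from the others by Dixon's ratio for 6 values of the named receptors, out of 132 groups examined; chance gives about 1 in 20. In KO cultures after 24 h, all of these were replicate 4: Drd1 at 12.1 CPM with the next library at 9.09, Oprl1 at 32.9 CPM with the next at 19.7, and Prokr1 at 1.06 CPM with the next at 0.172. The same library had Hist2h2be at 21.2 CPM, the lowest of the KO libraries, and Tbr1 and Gad2 levels toward those of WT; whether its label is right was not tested. In WT controls Htr5b was highest in replicate 2, at 1.19 CPM with the next at 0.601, and Oprl1 was lowest in replicate 3, at 52.2 CPM with the next at 63.1. In WT after 24 h Htr5b was again highest in replicate 2, at 1.17 CPM with the next at 0.876; both Htr5b libraries come from WT culture 2.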

How the results depend on the processing

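Counts of receptors called moved by more than 1.5 times in these settings. In set 2 alone (2 WT and 3 KO cultures), 0 were called for BDNF 30 min in WT, 2 for 24 h in WT, 2 for 24 h in KO, 3 for KO against WT in control, 7 at 30 min and 0 at 24 h. Of 17357 genes tested in set 2, 25, 237, 19, 599, 957 and 11 were called, in the same order. Fewer libraries enter, and all called receptors kept their direction there (20 of 20 in control, 19 of 19 at 24 h in WT). With the culture as replicate block, the count was 19 for 24 h in KO and 3 for the difference in the 24 h response, and no call of the unblocked fit was lost. Over all 16777 genes, 2834 and 299 were called there. The replicate number as block gave 22, 28 and 14 for KO against WT in control, at 30 min and at 24 h, but pairs nothing across genotypes. Its calls over all genes were 4227, 5442 and 2916. DESeq2 called 1 for the difference in the 24 h response, and 61 over all genes. Without KO culture 4 and KO 30 min replicate 3, 27 were called for KO against WT at 24 h (14 higher, 13 lower) and 2 for the difference in the 24 h response (Npy1r 0.70, adjusted p = 0.034, and Galr1 -2.77, adjusted p = 0.0443). Calls over all genes rose as well, to 5435 and 111 of 17393, from 2223 and 6 of 16777 in the main fit. The cause was not tested. Leaving out 1 library at a time gave 0 to 1 for 30 min in WT, 14 to 19 for 24 h in WT, 8 to 9 for 24 h in KO, 17 to 21, 20 to 28 and 3 to 16 for KO against WT in control, at 30 min and at 24 h, and 0 for 30 min in KO and both differences. Of 88 calls of single receptors in the 9 comparisons, 88 held with DESeq2, 87 with RLE factors, 86 with the set as covariate, 78 without the count filter and 71 with only the groups compared, and none of the settings run reversed a direction. Per kb of the longest transcript, Gabbr1 was at 157 CPM and Sstr2 and Chrm1 changed places. Depth limits Oprk1, Prokr1, Gpr50, Npy2r, Drd2 and Htr2b, whose lowest groups hold few counts.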
